A study of Mus musculus with 4 samples.

Results

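The genes examined were 9 basic helix-loop-helix (bHLH) transcription factors that direct neural and glial fate, namely Neurog1, Neurog2, Neurog3, Neurod1, Neurod2, Neurod4, Olig1, Olig2 and Atoh1. A peak was counted for a gene where the deposited list of Zeb1 peaks gave that gene's symbol. On this rule 8 of the 9 genes had a peak, where 51.4% of 21774 protein-coding genes had one, and they held 19 of the 17435 peaks of the list. Neurod4 had none.

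The peaks came from chromatin immunoprecipitation followed by sequencing (ChIP-seq) of Zeb1 in mouse embryonic stem cells (mESC) of the established D3 line. The cells were kept in ground state medium (GS), in which PD0325901 at 1 μM blocks MEK, CHIR99021 at 3 μM blocks GSK-3, and LIF is present at 20 ng/mL. There were 3 Zeb1 ChIP libraries, each made with 8 μg of antibody, and 1 input library made without antibody, all from chromatin fixed with 1% formaldehyde and sheared to about 200 bp. The list gives 1 mean per peak, made by the authors, so no spread between replicates could be measured and no value below carries an error. Some values, such as 36.4 ChIP reads at a Neurod1 peak, are not means of 3 whole counts, so what was averaged is not fully known. No expression values were used here, so the state of these genes in the cells was not checked.

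Proneural bHLH factors pair with E proteins such as Tcf3, bind short E-box sequences, and switch on neuronal programmes in progenitor cells, while Id and Hes proteins hold them back. Neurogenins act early and Neurod factors mostly later in differentiating neurons, Atoh1 specifies sensory hair cells and cerebellar granule cells, and Olig1 and Olig2 act in oligodendrocytes, with Olig2 also needed for motor neurons. Zeb1 is a zinc finger and homeodomain repressor that recognises E-box-like sequences with the core CACCTG. Embryonic stem cells in GS are not neural cells, and in general lineage genes of this kind are little expressed before differentiation.

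Sequence upstream of 3 start sites is shown first, because the presence or absence of a peak differed between them. Each line gives the 250 bases before the transcription start site (TSS) in RefSeq annotation of GRCm38.p6, read 5′ to 3′ along the gene, with every CG dinucleotide in capitals. Neurog1 had the peak of highest enrichment among the 9 genes, Atoh1 had one of the peaks with most reads, and Neurod4 had no peak.
Neurog1, minus strand, chr13:56252181-56252430: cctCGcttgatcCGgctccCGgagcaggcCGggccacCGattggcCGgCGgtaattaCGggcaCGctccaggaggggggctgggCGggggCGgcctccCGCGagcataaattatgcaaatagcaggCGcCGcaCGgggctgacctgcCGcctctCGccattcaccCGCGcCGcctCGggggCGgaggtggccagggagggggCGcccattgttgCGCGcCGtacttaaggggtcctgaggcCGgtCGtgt
Atoh1, plus strand, chr6:64728875-64729124: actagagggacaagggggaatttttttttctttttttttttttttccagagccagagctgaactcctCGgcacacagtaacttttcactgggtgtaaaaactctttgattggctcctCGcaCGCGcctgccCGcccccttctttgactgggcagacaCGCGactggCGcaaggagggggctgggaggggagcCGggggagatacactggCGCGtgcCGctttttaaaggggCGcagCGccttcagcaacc
Neurod4, minus strand, chr10:130280255-130280504: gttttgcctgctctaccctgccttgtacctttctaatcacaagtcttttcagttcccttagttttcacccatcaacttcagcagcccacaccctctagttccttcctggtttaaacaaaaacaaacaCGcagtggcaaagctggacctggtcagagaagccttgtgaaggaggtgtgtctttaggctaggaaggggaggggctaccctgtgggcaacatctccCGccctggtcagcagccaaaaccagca
The Neurog1 stretch held 29 CG dinucleotides and was 71.2% G and C, and the Atoh1 stretch held 14 and was 55.6% G and C. The Neurod4 stretch held 2 and was 51.2% G and C. The 3 genes were picked by their peaks, so no relation between CG content and peaks is read from these counts. Neurod1, not shown, had no peak over its TSS. Its ratio of observed to expected CpG around the start was 0.837, close to the 0.840 of Atoh1. The Zeb1 motif was in none of these 3 stretches.

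The neurogenins differed in the strength of their peaks. Neurog1, which is needed for cranial sensory neurons, is a gene with a single exon on chromosome 13. Its strongest peak (chr13:56250701-56253150, mm10) ran from 970 bp upstream to 1479 bp downstream of the TSS and covered all of the coding sequence. It held 125 Zeb1 ChIP reads against 15.6 input reads, the authors' means, and an enrichment over input of 18.0, a ratio that the authors normalized for mapped reads. This was rank 317 of the 17435 peaks by enrichment, and 98.2% of peaks had a lower value. A peak of enrichment 13.9 lay 30413 bp downstream of the TSS (chr13:56220551-56222950), at the annotated end of the transcript 4930550C17Rik, with 72.3 ChIP and 11.1 input reads. The remaining peak lay 6662 bp upstream (chr13:56258051-56259600), between genes, and had an enrichment of 8.02. Both of the outer peaks were classed as CpG islands in the detailed annotation of the list. All 3 regions at Neurog1 were thus above the median enrichment of all peaks, which was 6.5.

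Neurog2, which acts in cortical and sensory progenitors, had its main peak over the start of the gene (chr3:127631801-127635050). The peak was centred 280 bp downstream of the TSS, in the 5′ untranslated region, and held 129 ChIP reads and 34.2 input reads, with an enrichment of 8.22. The whole coding sequence lay inside it. Another peak 7370 bp upstream (chr3:127624801-127626750) had 49.2 ChIP reads and an enrichment of 5.48. Neurog2 therefore had about as many ChIP reads over its start as Neurog1, but more input reads and a lower ratio.

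Neurog3, the factor of endocrine precursors in the pancreas, stood below the other neurogenins. The peak over its start (chr10:62132301-62134500), centred in the intron 310 bp downstream of the TSS, had 62.5 ChIP reads and an enrichment of 6.85. A longer peak of 3400 bp was centred 4940 bp upstream (chr10:62126451-62129850), with 65.5 ChIP reads and an enrichment of 5.75. The list labelled that peak as promoter, as intergenic and as an intron of the Ensembl gene model Fam241b. Its assignment to Neurog3 thus rests on the nearest TSS. By ChIP reads and by enrichment, though not by ChIP reads per kb, the Neurog3 peak over the TSS was the lowest of the 7 peaks that covered a start site.

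The Neurod genes spanned a wide range of ChIP reads. Neurod2, which acts in maturing cortical neurons, had the peak with the most ChIP reads of all 9 genes (chr11:98325501-98330200). It was 4700 bp long, covered 98.0% of the gene, and held 186 ChIP and 32.4 input reads, with an enrichment of 11.6. By ChIP reads it was rank 111 of all peaks. A peak 4380 bp upstream (chr11:98332901-98335150) had fewer reads, 66.3, but a similar enrichment of 11.8, with 11.3 input reads. A peak 8695 bp downstream (chr11:98319951-98321950) had 48.4 ChIP reads and an enrichment of 7.64. Neurod2 was thus flanked on both sides, and farther upstream the next peak of the list was assigned to its neighbour Ppp1r1b, with 59 ChIP reads.

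Neurod1, a factor of both neurons and pancreatic endocrine cells, had no peak over its TSS or coding sequence. Its closer peak was centred 2489 bp upstream (chr2:79458401-79459850) and held 36.4 ChIP and 8.2 input reads with an enrichment of 9. The list labelled it as promoter, as intergenic and as an exon of the Ensembl gene Gm26755. Only 27.1% of all peaks had fewer ChIP reads. The other peak lay 15739 bp upstream in a LINE-1 repeat of the L1Md_F3 family (chr2:79471751-79473000). It held 30 ChIP reads against 32 input reads, and its deposited enrichment was 2.25, lower than in all but 0.568% of peaks. Fewer ChIP than input reads were found in 86 of the 17435 peaks, and this was the only such peak among the 19. Neurod1 thus had the fewest ChIP reads of the 8 genes with a peak.

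Neurod4, which acts with other proneural factors in the retina and hindbrain, was the gene without an assigned peak. The closest peak of the list, whatever its assignment, lay 55354 bp from its TSS (chr10:130222751-130224900). It was assigned to the olfactory receptor gene Olfr827, lay in a LINE-1 repeat of the L1Md_A family, and had 34 ChIP reads and an enrichment of 6.6. A region without a peak had not passed the authors' limits, and a weaker signal there was not measurable from the list.

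Olig1 and Olig2 lie 44219 bp apart on chromosome 16, and each had a peak over the gene. The Olig1 peak (chr16:91269101-91272200) covered the single exon completely and held 130.4 ChIP and 32.6 input reads at an enrichment of 8.22. The Olig2 peak (chr16:91224751-91228850) was 4100 bp long, also covered its gene completely, and held 112 ChIP and 29.4 input reads at an enrichment of 7.72. The pair therefore had nearly the same ratio of ChIP to input reads, 4 at Olig1 and 3.82 at Olig2. A smaller peak 2700 bp upstream of Olig2 (chr16:91221701-91224000) had 40 ChIP reads and an enrichment of 4.05, lower than in most peaks of the list. Between the TSSs of the pair, 0 peaks lay wholly inside the interval.

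Atoh1 on chromosome 6 is a gene with a single exon and had 4 assigned peaks, the most of the 9. The peak over the start (chr6:64728051-64730750) was centred 254 bp downstream of the TSS and held 129 ChIP and 33.3 input reads at an enrichment of 8.43. A CpG island peak 5504 bp downstream (chr6:64733851-64735450), beyond the end of the gene, had 77.2 ChIP reads on only 1600 bp and an enrichment of 6.78. Per length this was 48.3 ChIP reads per kb, close to the 47.8 of the peak over the start, and its input reads per kb were also high, at 14.6 against a median of 8.07 over all peaks. An autoregulatory enhancer of Atoh1 is known downstream of the gene, and whether this peak overlaps it was not tested.

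The other Atoh1 peaks were distant. One was centred 77129 bp downstream in an L2a repeat (chr6:64805401-64807150), with 45 ChIP reads and an enrichment of 5.1. The other was centred 152954 bp downstream in a LINE-1 repeat of the L1Md_A family (chr6:64880651-64883550), with 78.5 ChIP reads and the highest enrichment of the 4, 9.7. The nearest TSS of another protein-coding gene, Smarcad1, lies 313466 bp from that of Atoh1. In so wide an interval a peak is assigned to Atoh1 by the nearest TSS alone, and whether the distant peaks have to do with Atoh1 was not tested.

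**Figure D1:**
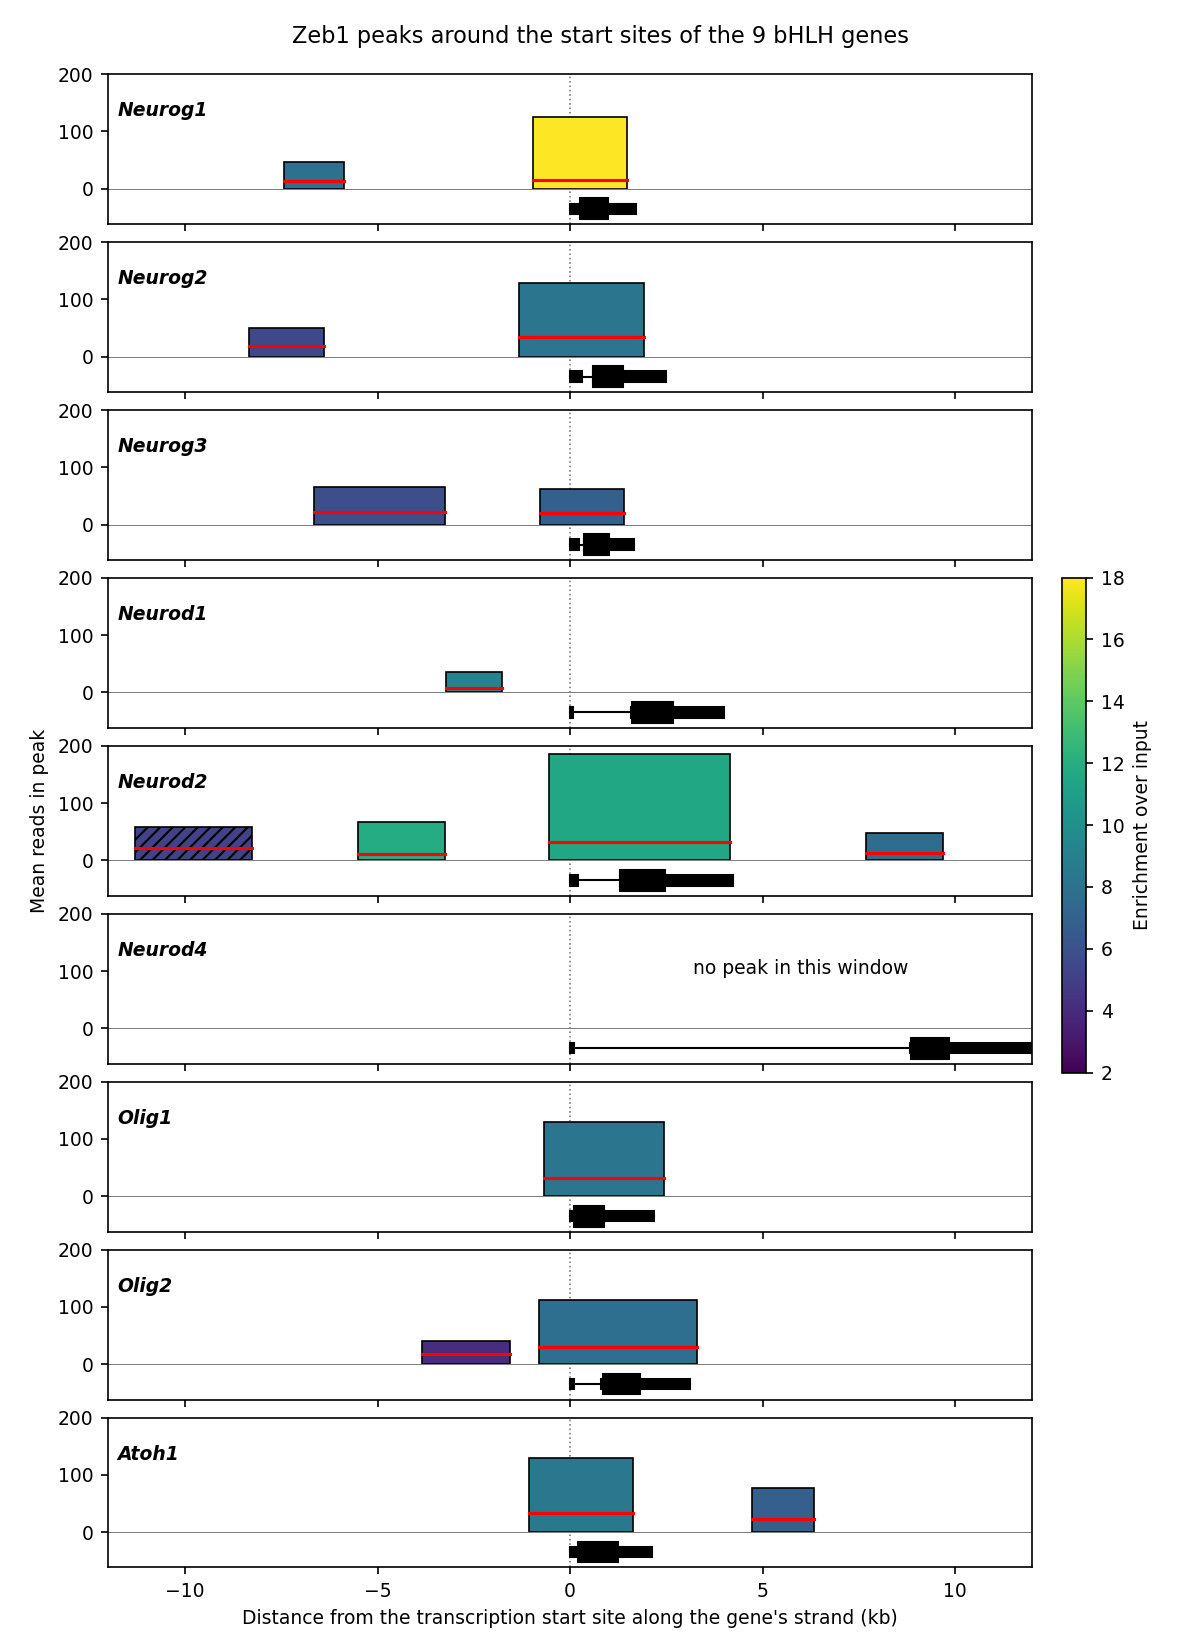
Zeb1 peaks within 12 kb of the TSS of each of the 9 genes, drawn along the gene's strand. Box height is the authors' mean Zeb1 ChIP reads, the red line their mean input reads, the colour the enrichment over input, hatching a peak assigned to another gene, and the black bars below are exons with coding parts thicker. In 7 genes a box covers the start site, in Neurod1 the only box lies upstream, and Neurod4 has none.

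The most frequent pattern was a region over the start and the coding sequence, which Neurod1 and Neurod4 did not have. A peak covered the TSS in 7 of the 9 genes, where 45.1% of 21774 protein-coding genes had such a peak. In each of these 7 the peak took in the whole coding sequence. The genes are compact, with 1 coding exon each. Among the 670 protein-coding genes with 1 coding exon and a peak within 5 kb of the TSS, 59.9% had all coding bases in peaks. Of the 8 genes here with a peak within 5 kb, 7 did, Neurod1 being the exception. Full cover is thus common for genes of this build.

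The 7 peaks over a TSS had a median length of 3100 bp, against 1850 bp over all peaks, and a median of 129 ChIP reads, against 47.4. Longer regions collect more reads, and per kb the medians were 39.8 and 25.1 ChIP reads. Input reads were also higher in these 7 peaks, with a median of 32.4 against 16, or 9.32 against 8.07 per kb. Enrichment, which sets both against each other, had medians of 8.22 and 6.5. Over the 10698 peaks within 5 kb of a TSS, the medians were 1950 bp, 52.6 ChIP reads, 26.8 ChIP reads per kb and an enrichment of 6.74. The regions over these start sites thus stood out more in length and reads than in their ratio over input. Peaks over the start sites of other genes were not set beside them.

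The other 12 peaks were close to the ordinary peak of the list. Their medians were 1975 bp, 48.8 ChIP and 17.5 input reads, with 7.21 for enrichment. In reads, 6 of the 7 peaks over a TSS were above every one of these 12. The Neurog3 peak over the TSS was the exception, with fewer ChIP reads than 5 of the 12, and in enrichment the downstream Neurog1 peak and the upstream Neurod2 peak were above most peaks over a TSS.

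The input differed between these start sites. The Neurog1 peak had 6.36 input reads per kb and the Neurod2 peak 6.89, against 12.3 at Atoh1, 10.5 at Neurog2 and 10.5 at Olig1, while these 5 peaks had between 39.5 and 51.1 ChIP reads per kb. The Olig2 peak also had few input reads, 7.17 per kb, but with 27.4 ChIP reads per kb its enrichment was not high, and the Neurog3 peak had 9.32 and 28.4. Neurog1 had the most ChIP reads and the fewest input reads per kb of the 7 peaks. Input reads at single peaks are few, and their counting error was not available per library.

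**Figure D2:**
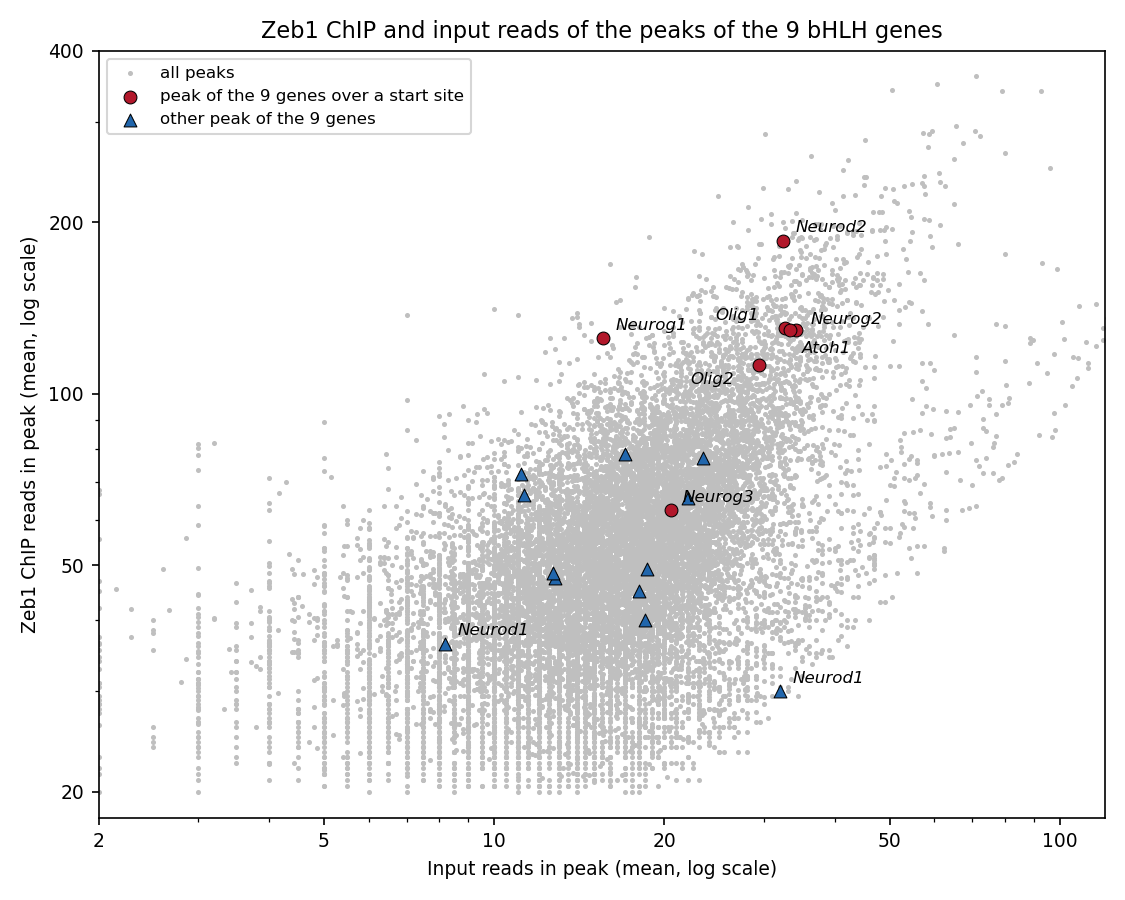
Mean Zeb1 ChIP reads against mean input reads per peak on log scales, with all peaks in grey (36 lie outside the plotted range), peaks of the 9 genes over a start site as red circles and their other peaks as blue triangles. Of the red circles, 6 lie at 112 to 186 ChIP reads, Neurog1 lies to the left of the others at 15.6 input reads, and the Neurod1 peak in a LINE-1 repeat lies at the lower right with 30 ChIP and 32 input reads.

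Set against all genes, having a peak was not unusual, but having one with many ChIP reads was less common. At least 1 peak was assigned to 51.4% of protein-coding genes (8 of these 9). At least 2 were assigned to 13.6% of genes and to 7 of the 9. Whether the width of the interval around a gene, wide at Atoh1, goes with its number of peaks was not tested. A peak within 5 kb of the TSS was found for 43.5% of genes and again for 8 of the 9. A peak of at least 100 ChIP reads was assigned to 4.79% of genes and to 6 of the 9, namely Neurog1, Neurog2, Neurod2, Olig1, Olig2 and Atoh1. Such a limit favours long peaks. Per kb the Olig2 peak had 27.4 ChIP reads, near the median of 25.1 over all peaks, and the others had between 39.5 and 51.1. An enrichment of at least 10 was reached in 2 of the 9 genes and in 9.59% of protein-coding genes. With 9 genes chosen as a family, these counts are descriptions and were not tested.

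The same held for the summary values. The median of the highest enrichment per gene was 8.61 over the 8 genes with a peak and 7.1 over all 11190 protein-coding genes with one. The median of the most ChIP reads in a peak was 127 and 53. The 8 genes were therefore closer to other genes in enrichment than in reads.

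Promoter CpG content ran in parallel with the presence of a peak across all genes. For each gene with an entry in the RefSeq promoter table, the ratio of observed to expected CpG was computed in the window from 250 bp before to 50 bp after the TSS. The table held 8 of the 9 genes and 17492 protein-coding genes in all, with no entry for Olig1. Where the ratio was below 0.2, 6.31% of 3928 genes had a peak within 5 kb of the TSS. The share was 16.8% of 2770 genes between 0.2 and 0.4, 43.7% of 2178 between 0.4 and 0.6 and 65.2% of 3517 between 0.6 and 0.8. It levelled off above that, at 70.2% of 3634 genes between 0.8 and 1 and 69.1% of 1465 at 1 or more. Genes with CpG-rich starts thus made up most of the genes with a peak near the TSS.

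The bHLH genes with a promoter entry were spread over these bins, and all but Neurod4 had a peak within 5 kb of the TSS. This included Neurog2 and Neurog3, in whose bin 43.7% of genes had one. Neurod4, the gene without a peak, had the lowest ratio, 0.197, at the border of the lowest bins, in both of which few genes had a peak. Neurog3 and Neurog2 had 0.547 and 0.570, and Neurod2 had 0.697. Olig2, Neurod1, Atoh1 and Neurog1 had 0.815, 0.837, 0.840 and 0.891. In the bin of these 4 genes and in that of Neurod2, most genes had a peak. The order of reads did not follow that of the ratio, since Neurod1 had a CpG-rich start and its closer peak held 36.4 ChIP reads, while Neurod2 had the most reads at a lower ratio. The part of CpG content in these peaks was not tested.

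**Figure D3:**
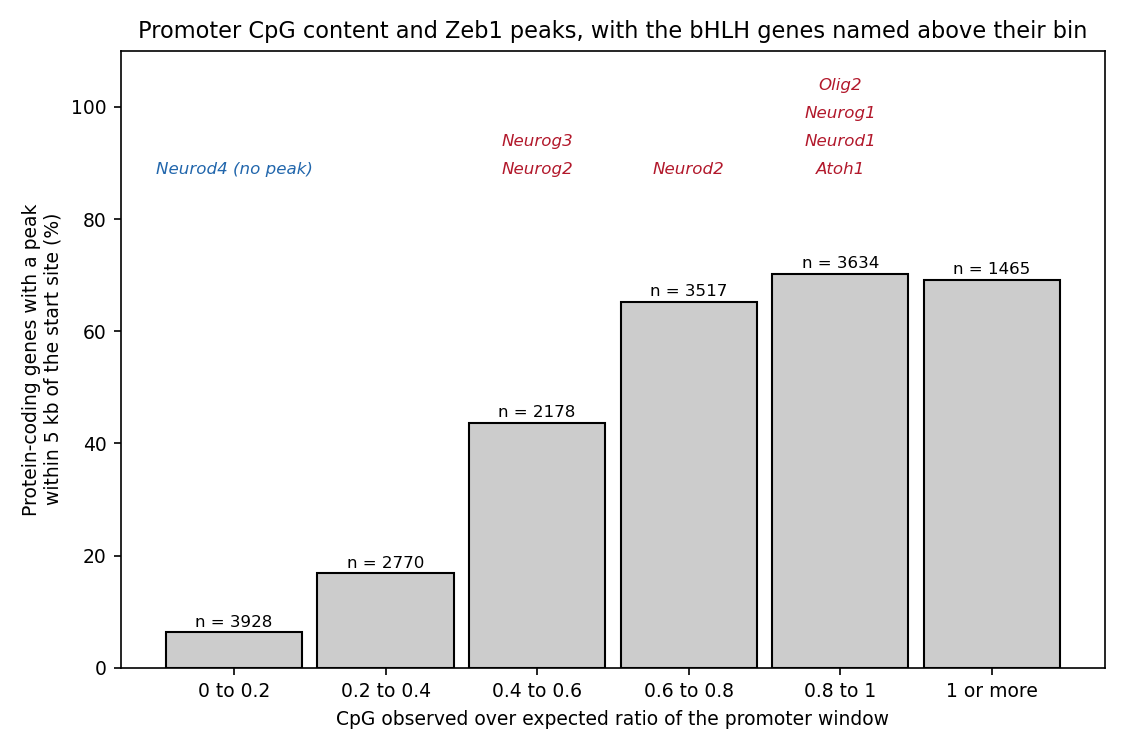
Percent of protein-coding genes with a Zeb1 peak within 5 kb of the TSS, by the CpG observed over expected ratio of the promoter window, with the number of genes above each bar. The 8 bHLH genes with a promoter entry are named above their bin (height has no meaning): Neurod4 without a peak stands over the bar of 6.31%, and 4 genes stand over the bar of 70.2%.

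The Zeb1 motif searched was 8 bases long. It is ACCTG preceded by C or T, then any base, then C or T, and it was searched on both strands. It was found in 13 of the 19 peaks, or 68.4%, with 27 matches in all, while 76.8% of all peaks held it. Since longer peaks hold more matches, each of the 19 was also set beside all peaks within 10% of its length, of which 82.0% on average held the motif. The shorter core CACCTG, on either strand, was in 18 of the 19 peaks, or 94.7%, in 82.1% of all peaks and on average in 86.7% of those of like length, but its median density of 0.870 per kb was below the 0.968 over all peaks. The direction thus depended on the form and the measure, and with 19 peaks no difference from the list is read from these values.

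The matches were not gathered at the start sites. Of the 7 peaks over a TSS, 5 had a match, with 8 matches between them, and of the other 12 peaks 8 had a match, with 19. The 3 Neurog1 peaks held 0 matches, and its peak over the TSS, the most enriched of the 19, also lacked the 6 bases CACCTG on both strands. The Neurog3 peak over the TSS held 0 matches of the 8 bases and 1 of CACCTG. In the promoter windows of 300 bp, 0 of the 8 genes had a match, against 15.98% of all promoters. High enrichment and a match of this motif thus did not go together at Neurog1, and an absent match says only that these letters are not in the window.

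For 6 genes the match nearest to the TSS, among those in the gene's assigned peaks, is shown within 30 bases, read along the gene's strand with the motif in capitals, so that its form and setting can be seen. A match on the opposite strand reads CAGGT and 3 further bases.
Neurog2, plus strand, chr3:127634478-127634507: tcgttatgcgcCTCACCTGcccctcgccag
Neurog3, plus strand, chr10:62129800-62129829: aacactggggaCAGGTGGGgctttcttttc
Neurod1, minus strand, chr2:79458683-79458712: ccgggaatatcCAGGTGTAgcttttctttt
Neurod2, minus strand, chr11:98328620-98328649: tcccttaacccCCCACCTGgtcaagctctc
Olig2, plus strand, chr16:91225062-91225091: agcaaaaactcCAGGTGTGgcaagcaacct
Atoh1, plus strand, chr6:64729756-64729785: cttccagcaaaCAGGTGAAtggggtacaga
The Neurog2 and Atoh1 matches lie in coding sequence, 1356.5 and 645.5 bp downstream of the TSS by the match's centre, and the Neurod2 match lies in the intron. Those of Neurog3, Neurod1 and Olig2 lie upstream of the gene. Olig1 also had 1 match, not shown, 1118.5 bp downstream of its TSS in the 3′ untranslated region. Only sequence in peaks was searched here, so a closer match outside them is possible. Coordinates are GRCm38.p6, and none of the 6 was tested as a binding site.

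Other E-boxes were counted for comparison, because proneural factors themselves prefer forms such as CAGCTG and CAGATG. The former was in 16 of the 19 peaks, in 62.4% of all peaks and on average in 71.2% of those of like length. The latter, on either strand, was in 16 of the 19, in 72.8% of all and in 76.3% of those of like length, so that part of the distance from the list went with length. In the 7 peaks over a TSS the median density was 0.909 CAGCTG per kb, against 0.580 in the other 12 and 0.513 over all peaks. For CAGATG it was 0.741 per kb, against 0.761 in the other 12 and 0.625 over all. The core CACCTG had a median of 0.455 per kb in these 7 peaks, 1.42 in the other 12 and 0.968 over all peaks. The counts per peak are small, from 1 to 4 for CAGCTG and 1 to 6 for CAGATG in the 7 peaks, and the differences were not tested.

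Related bHLH genes also carried peaks in most cases. Over 4 lists of other bHLH genes and their partners, 41 of 44 had an assigned peak, and 37 had one within 5 kb of the TSS. The shares over all protein-coding genes were 51.4% and 43.5%. Other proneural-type factors had a peak in 12 of 12 genes, with the highest enrichment at Bhlhe22 (16.1), Bhlhe23 (14.6) and Ferd3l (13.2). The Bhlhe22 and Bhlhe23 peaks lay 700 and 600 bp downstream of the TSS, but the only Ferd3l peak was 161525 bp upstream. The Bhlhe22 peak thus came near that of Neurog1 in enrichment, but with 62.6 ChIP reads it held fewer reads.

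The partners and antagonists of bHLH factors mostly had peaks too. All 3 E protein genes had a peak, with the highest enrichment of 11.5 at Tcf4, 7.29 at Tcf12 and 5.6 at Tcf3, and none had a peak of 100 reads. Of the Id and Hes type genes 12 of 13 had a peak, Id2 being the exception, and Hey1 (11.5, in a peak 118462 bp upstream), Hes3 (10.2) and Hes6 (8.86) had the highest enrichment. Of the muscle and mesoderm bHLH genes 14 of 16 had a peak, Myf5 and Msgn1 being the exceptions. Twist1 (14.6, in a peak 42479 bp downstream), Hand1 (11.2) and Scx (10.2, in a peak 6562 bp downstream) were on top.

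Lists from outside the bHLH family had similar shares. Of 24 neural lineage genes 21 had a peak, all but Myt1, Ebf1 and Ebf2, and the highest enrichment was 31.3 at Pou4f1, 23.4 at Nkx6-1, in a peak 352211 bp from its TSS, and 18.9 at Barhl2. Of 9 Pax genes 8 had one, all but Pax4, with Pax7 (13), Pax9 (12.1) and Pax3 (9.64) highest. The Pax7 peak lay 11443 bp downstream of the TSS and the Pax3 peak 19964 bp upstream. Of 13 naive pluripotency genes 11 had one, all but Pou5f1 and Dppa3, with Klf2 (12.1), Tfcp2l1 (12.02) and Klf4 (11.5) highest. A high share of genes with a peak was thus seen in every list examined, and the proneural and glial genes did not stand apart in it.

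The median of the most ChIP reads per gene was 127 in the 8 proneural and glial genes with a peak. Among the genes with a peak it was 69.6 in the other proneural-type factors, 69.6 in the Id and Hes type genes, 77.2 in the muscle and mesoderm genes and 38.5 in the E proteins. It was 84.4 in the Pax genes, 80.6 in the neural lineage genes and 68.6 in the pluripotency genes. The proneural and glial genes had the highest median of these lists, but every other list except the E proteins also held genes with a peak of at least 100 reads, namely 5 of 13 pluripotency, 8 of 24 neural lineage, 4 of 12 other proneural-type, 3 of 13 Id and Hes type, 2 of 9 Pax and 3 of 16 muscle and mesoderm genes. Over all protein-coding genes, 4.79% had a peak of at least 100 reads. Lyl1, in the muscle and mesoderm list, had the most of all genes listed, 216 reads, and Klf2 with 196 and Klf4 with 184 were close to Neurod2. For the highest enrichment per gene the medians lay between 6.84 and 9.26 in all 8 lists, with 8.61 in the proneural and glial genes.

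**Figure D4:**
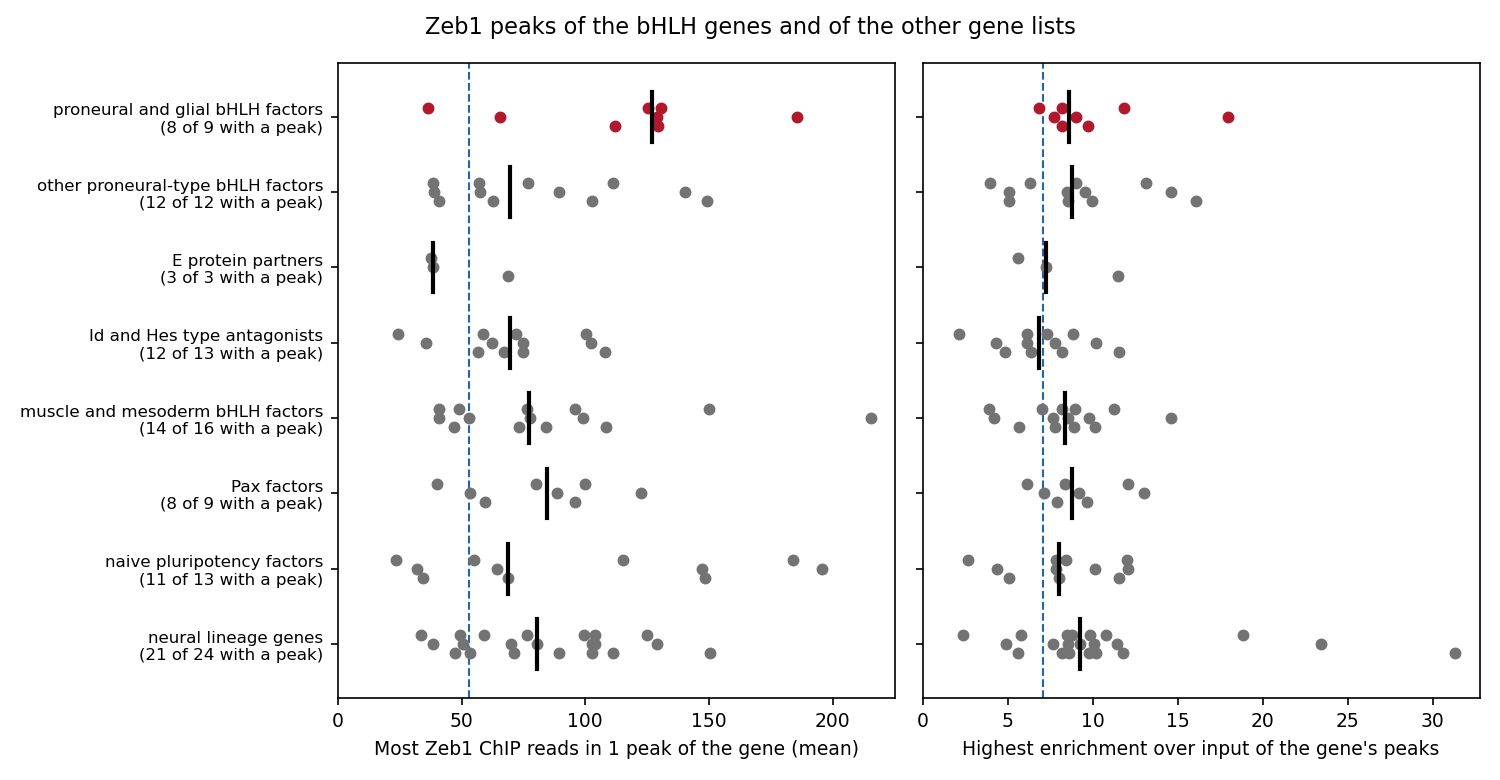
Most Zeb1 ChIP reads in a peak (left) and highest enrichment over input (right) for each gene with an assigned peak, by list, with the list's median as a black bar and the median of all protein-coding genes with a peak as a dashed line (53 reads and 7.1). The proneural and glial genes, in red, have a median of 127 reads, above the other lists, and a median enrichment of 8.61, within their range.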

How the data were processed

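Zeb1 ChIP-seq was measured in mESC in GS, in 3 Zeb1 ChIP libraries and 1 input library per the labels. The authors mapped Ion Torrent reads to mm10 with STAR 2.4.2a, removed duplicates with Picard 1.136, called peaks per ChIP library against the input, unified those found in more than 1 ChIP library and annotated them with HOMER 4.7. The deposited ChIP and input reads are a signal per unified peak, averaged by the authors and not whole counts. The deposited enrichment is the authors' ratio of ChIP to input reads, scaled to the mapped reads of each library and averaged. The deposited p-value was 0 in all 17435 peaks and was not used. The paper states that an equal number of reads per sample was drawn at random before mapping. The number left after mapping and removal of duplicates is unknown from the list.

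The sign of the deposited distance was checked against RefSeq in the 13882 peaks over 100 bp from the TSS whose size of distance matched within 100 bp (3553 were not compared). A positive sign meant downstream in 13866 and upstream in 16, opposite to the legend, and the sign found was used. Genes were matched by symbol for the 9 genes and by Entrez identifier for the 21774 protein-coding genes of GRCm38.p6. Peaks, genes and motifs were counted with Python 3.11.15, NumPy 2.4.6 and pysam 0.24.0, and the functions were checked on simulated data. No test was run, because the list has 1 mean per peak.

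The genes named were the 9 with every peak, the nearest peak of each, and from each further list the 3 of highest enrichment and those without a peak where there were 6 or fewer. 4930550C17Rik, Fam241b, Gm26755, Lyl1, Ppp1r1b and Smarcad1 were named after their values or positions were seen. The shares of peaks of like length for the 3 E-boxes were added after the counts had been seen. The 9 genes and the lists were chosen with earlier results of these data known.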

Additional observations from a re-analysis of the deposited data

How the results depend on the processing

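Of 23 alternatives to the 7 main results, 13 stayed within 1.5 times the main value and 10 did not or changed a median. With an enrichment of at least 10, 2 of the 9 genes (Neurog1 and Neurod2) and 4 of their 19 peaks were left, while 9.59% of protein-coding genes had such a peak. With the distance limit at 1 kb in place of 5 kb, 5 genes in place of 8 had a peak near the TSS (39.6% of protein-coding genes), because the peaks over Neurod2 and Olig2 are long and centred farther downstream and the closest Neurod1 peak lies upstream. The median highest enrichment of 8.61 became 8.32 with the peak closest to the TSS, 8.32 with peaks within 5 kb alone and 8.32 with the peak of most reads. It became 3.99 as (treatment reads + 1)/(input reads + 1), which lacks the authors' scaling. The Zeb1 motif, in 13 peaks on both strands, was in 7 on the forward strand (54.4% of all peaks) and in 5 within the central 500 bp (34.6% of all peaks), where less sequence is searched, and CACCTG on either strand was in 18 (82.1% of all peaks). Over all 49595 reference genes in place of the protein-coding ones, 24.7% had a peak. At an enrichment of at least 5, 8 genes and 17 peaks were left, with 42.1% of protein-coding genes.

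Values without each replicate could not be computed, since the list holds no value per library. No paired analysis was possible because the results come from no test. Peaks with few reads, such as those of Neurod1, are the least certain, and the list does not show regions below the authors' limits.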
